A study of Mus musculus with 10 samples.

Results

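The genes described here encode the ionotropic and metabotropic receptors for glutamate, GABA and glycine. They were taken by name from the autosomal rows of the deposited peak table (symbols beginning Gria, Grik, Grin1 to Grin3, Grid, Grm, Gabr, Gabbr, Glra or Glrb), whatever the annotation of the peak, and Grm6 and Grina were not included. The rule found 559 peaks assigned to 42 genes, of 108253 peaks and 25400 symbols in all. A further 8 peaks of 5 receptor genes on chromosome X fell outside it, and 3 protein-coding autosomal genes with matching names (Gabra6, Gabrp and Grin3b) had no assigned peak.

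The study cultured retinas of wild-type C57BL/6J mice at postnatal day 28 as explants for 48 h in medium with 5 mM or 25 mM glucose and profiled 2 histone marks by CUT&Tag, an assay in which an antibody directs a transposase to the marked chromatin. H3K18La is lactate-derived lactylation of histone H3 at lysine 18, and H3K27Ac is acetylation at lysine 27. The sample titles and the study's methods name these marks, but the extraction text in the labels lists an H3K9me3 antibody in place of one for H3K27Ac and also a nuclease fusion, and the libraries are called here by their titles. There were 3 libraries at each glucose level for H3K18La and 2 at each for H3K27Ac, all from the same strain and age. Each library was made from dissociated cells of whole retina, so more marked cells and more mark per cell cannot be told apart, and the study's methods speak of biological replicates without saying whether each library came from separate animals, so the p-values measure only the spread between these libraries.

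In the retina, photoreceptors release glutamate onto bipolar and horizontal cells, bipolar cells release it onto amacrine and ganglion cells, and amacrine cells return inhibition with GABA or glycine. AMPA, kainate, NMDA, GABA-A, rho and glycine receptors are ligand-gated channels, whereas metabotropic glutamate and GABA-B receptors act through G proteins. The rho subunits form the slowly desensitizing GABA receptors known for their place on bipolar cell terminals. Acetylation of lysine 27 marks active promoters and enhancers.

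Levels are RPKM, reads per kilobase of peak with the read total set to 1000000, and a locus level is the width-weighted mean RPKM of all peaks assigned to the gene. The read total behind the RPKM ranged from 1358008 to 5182766 for H3K18La and from 4324289 to 7424470 for H3K27Ac, and between 160437 and 4996636 reads per library lay in peaks. The share of that total lying in peaks differed between the glucose levels: a median of 11.9% at 5 mM against 31.6% at 25 mM for H3K18La (n = 3 each), and 21.1% to 31.5% against 56.5% to 69.5% for H3K27Ac. None of the 24 photoreceptor loci described later was at 0 in any library. They were kept because they had a peak in these data, so this cannot check the tissue label.

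Receptor peaks lay mostly inside the genes. Of the 559 peaks, 314 (56.2%) were in an intron other than the first, against 26.3% of all peaks in the table. Promoter peaks, from 1000 bases before to 500 after a transcript start, numbered 37 (6.62%, against 15.8% of all peaks), and 64 were distal intergenic (11.4%, against 32.8%). A further 101 peaks lay in first introns, 28 in exons, 11 in 3' UTRs and 4 in 5' UTRs. The receptor peaks covered 457.9 kb and made up 0.516% of all peaks.

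**Figure D1:**
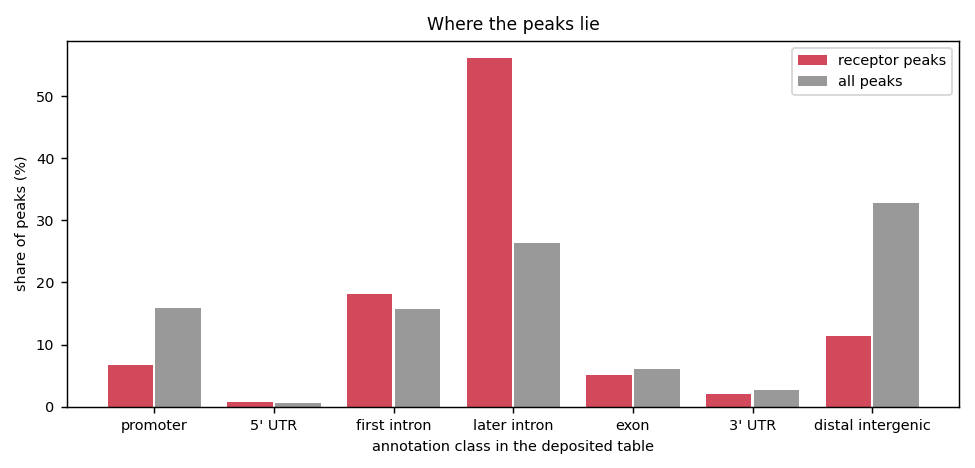
Share of peaks (%, y axis) in each annotation class of the deposited table (x axis) for the 559 receptor peaks (red bars) and all 108253 peaks (grey bars). Introns other than the first held 56.2% of receptor peaks and 26.3% of all peaks, and promoters 6.62% and 15.8%.

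Reads and peaks were unevenly spread over the genes. Grid1, which encodes a delta glutamate receptor subunit of the synaptic organizer class, had 77 peaks, Grik3 had 62 and Gabbr2 49. Together with Grm4 these genes held 46.7% of all reads in receptor peaks and 37.9% of the peaks, and the 10 leading genes held 77.5% of the reads and 59.9% of the peaks. At the other end, Gabra4 and Gabrg1 had 1 peak each, and Gabra4 held 0.0841% of the reads. The genes differ in length: peaks within the gene per 100 kb numbered 9.70 at Grid1, 14.9 at Gabbr2, 21.0 at Grik3 and 24.2 at Grm4.

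The windows printed next are the central 300 bases of the strongest peak outside promoters at Grm4, Grm8, Grik5 and Grik4, followed by the central window of a Gabbr1 promoter peak, because these peaks carry the glucose values described later. They were read from the plus strand of GRCm38. Capitals mark GGATTA or its complement TAATCC, the core bound by the photoreceptor homeobox factor CRX, and GGGCGG or its complement CCGCCC, the GC box.
Grm4, intron, chr17:27433006-27433305: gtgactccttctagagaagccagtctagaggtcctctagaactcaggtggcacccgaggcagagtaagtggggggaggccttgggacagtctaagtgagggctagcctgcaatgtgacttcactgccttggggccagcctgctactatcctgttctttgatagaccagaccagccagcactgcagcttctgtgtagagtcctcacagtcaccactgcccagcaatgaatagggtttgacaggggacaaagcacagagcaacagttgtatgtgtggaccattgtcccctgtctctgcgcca
Grm8, intron, chr6:27809924-27810223: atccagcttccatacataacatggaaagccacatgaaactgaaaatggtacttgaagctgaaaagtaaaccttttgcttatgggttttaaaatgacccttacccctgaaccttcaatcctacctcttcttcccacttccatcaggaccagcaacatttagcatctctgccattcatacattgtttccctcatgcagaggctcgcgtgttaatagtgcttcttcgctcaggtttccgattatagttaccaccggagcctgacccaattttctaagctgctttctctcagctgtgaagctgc
Grik5, intron, chr7:25031579-25031878: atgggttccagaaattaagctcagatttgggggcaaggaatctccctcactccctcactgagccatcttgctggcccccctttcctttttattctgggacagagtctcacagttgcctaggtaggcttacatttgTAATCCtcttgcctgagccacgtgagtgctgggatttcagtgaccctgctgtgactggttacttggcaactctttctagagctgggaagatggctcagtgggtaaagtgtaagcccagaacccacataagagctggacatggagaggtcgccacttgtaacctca
Grik4, first intron, chr9:42731871-42732170: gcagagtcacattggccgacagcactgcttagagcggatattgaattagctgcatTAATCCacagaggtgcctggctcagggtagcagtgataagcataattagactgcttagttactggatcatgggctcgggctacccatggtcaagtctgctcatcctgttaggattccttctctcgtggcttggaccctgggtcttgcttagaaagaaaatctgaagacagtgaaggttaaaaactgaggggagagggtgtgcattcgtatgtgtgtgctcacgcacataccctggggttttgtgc
Gabbr1, promoter, chr17:37046115-37046414: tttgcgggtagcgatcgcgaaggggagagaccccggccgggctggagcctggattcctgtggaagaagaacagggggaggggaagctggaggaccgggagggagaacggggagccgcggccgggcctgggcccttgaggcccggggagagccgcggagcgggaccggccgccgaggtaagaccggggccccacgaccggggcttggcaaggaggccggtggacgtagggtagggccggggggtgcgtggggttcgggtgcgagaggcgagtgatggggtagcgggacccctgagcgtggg
One TAATCC stood in the Grik5 and in the Grik4 window and none in the Grm4 or Grm8 window, nor in the like windows of Grid1 and Grik3, which are not printed here. The Gabbr1 promoter window had 30 CpGs and 73.0% G+C and held no GC box.

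The same letters were counted over all receptor peaks and over the whole table. The CRX core occurred in the central window of 52 of 522 receptor peaks outside promoters (9.96%, against 12.3% of the 91109 such peaks in all) and in 3 of 37 promoter peaks (8.11%, against 6.95%). GC boxes occurred in 14 of the 37 promoter peak windows (37.8%, against 44.8% of the 17144 promoter peaks), and the median G+C share of these windows was 60.7%, against 60.3%. For 27 of the 42 genes RefSeq promoter sequences of GRCm38 were at hand, 33 windows reaching from 250 bases before to 50 after the start. Of these, 19 held a GC box (57.6%, against 35.7% of 32851 windows) and 2 the CRX core (6.06%, against 7.06%). These matches are descriptions of letters, not of binding.

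The main comparison asked how the 2 marks at receptor loci differed between 25 mM and 5 mM glucose. On the deposited scale, H3K18La rose at 14 of the 27 receptor loci that reached a mean of 1 RPKM over the 10 libraries, and H3K27Ac at 11, while neither mark fell at any, by limma or voom, with 16 and 15 loci at an unadjusted limma p under 0.05 (limma on log2(RPKM + 0.5), Benjamini-Hochberg adjusted p under 0.05 over the 17359 loci tested). Loci across the genome mostly changed in the same direction: 49.1% of all loci tested rose in H3K18La and 62.8% in H3K27Ac, and 0.0749% and 0.317% fell. Beside that background, 51.9% of the tested receptor loci rose in H3K18La and 40.7% in H3K27Ac. The median log2 fold change over the tested receptor loci was 0.76 for H3K18La and 0.67 for H3K27Ac, and over all loci it was 0.91 and 1.02. Of the 27 loci, 11 had a mean under 1 RPKM over the 5 mM libraries and reached the minimum through the 25 mM libraries. With no minimum, all 42 loci were fitted: limma then called 14 higher and 1 lower (Glra3) in H3K18La, where 29.9% of all 25400 loci were called higher and 0.232% lower. In H3K27Ac that fit called 0 of all 25400 loci and so 0 receptor loci, of which 14 had an unadjusted limma p under 0.05, and voom, run with the minimum, called 12.

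Called in both marks were 6 receptor loci, Grik5, Gabrr2, Gabra2, Grm8, Grid1 and Gabrr1. Another 8 were called in H3K18La alone (Gabrr3, Grm4, Grin2d, Grik3, Gabrd, Gria2, Grik4 and Gabbr2), 5 in H3K27Ac alone, among them Gabbr1 and Glra1, and 8 tested loci in neither. Of all 17359 tested loci, 34.3% were called higher in both marks, 14.8% in H3K18La alone, 28.5% in H3K27Ac alone and 22.4% in neither. The difference between the marks was not tested. The directions rest on the scaling: when each library was divided by its share of reads in peaks, the median over all loci went to -0.11 for H3K18La and -0.10 for H3K27Ac, no receptor locus was called by limma in either mark (2 and 1 had an unadjusted p under 0.05), and 19 and 20 of the 27 loci changed sign. Counts of H3K27Ac also rested on single libraries: 17 receptor loci were called without the second 5 mM library, 3 without the first 5 mM library, 2 without the second 25 mM library and 0 without the first (3 of the 27 loci had an unadjusted p under 0.05 in that limma fit).

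**Figure D2:**
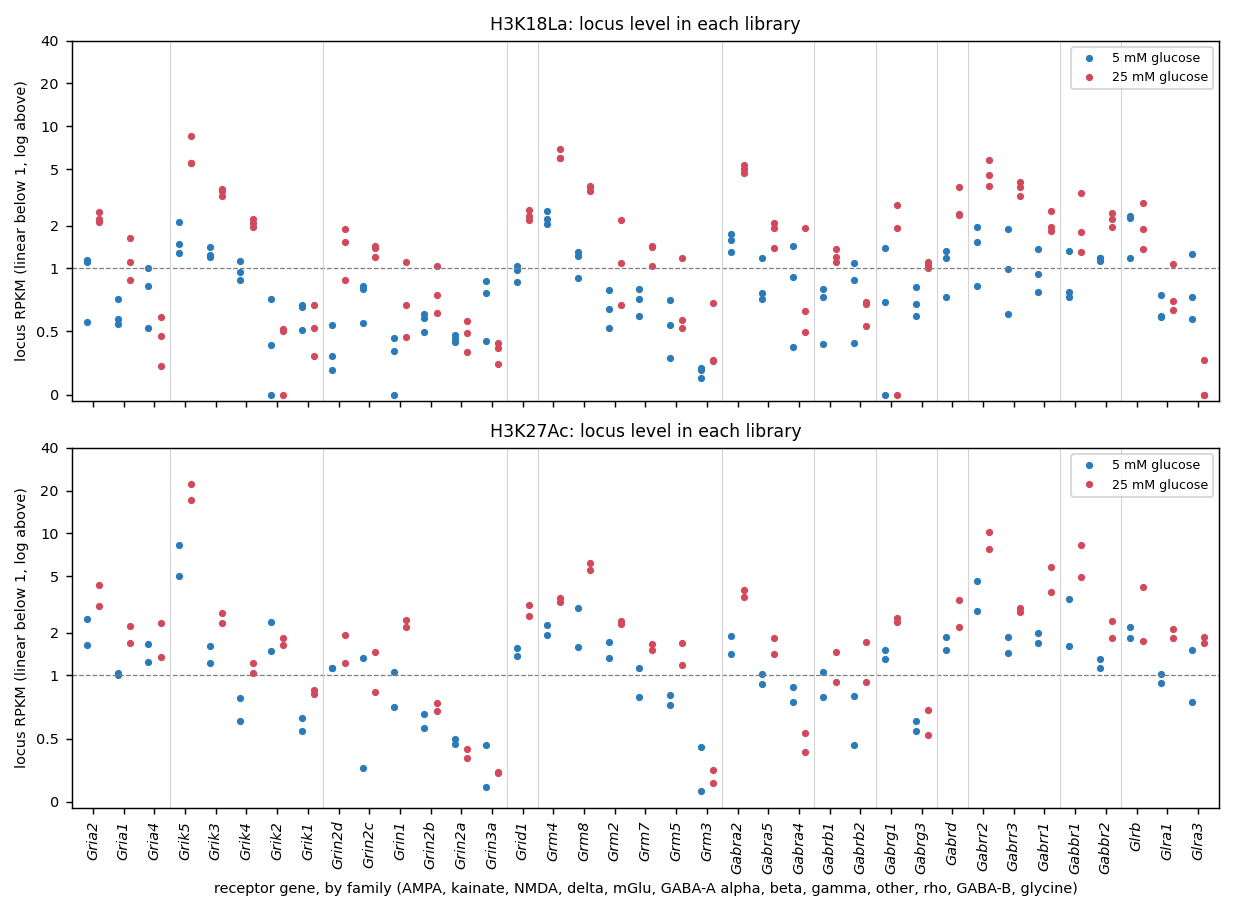
Locus level (RPKM, y axis, linear below 1 and logarithmic above) of H3K18La (top) and H3K27Ac (bottom) at 37 of the 42 receptor genes (x axis, grouped by family), with 1 point per library at 5 mM (blue) and 25 mM glucose (red) and a dashed line at the minimum of 1 RPKM. Grik5 stands highest at 25 mM in both marks, at 6.49 and 19.7 RPKM on average.

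The kainate receptor genes held the highest locus of all. Grik5, which encodes the high-affinity subunit GluK5, carried 2.11, 1.48 and 1.29 RPKM of H3K18La in the 5 mM libraries and 8.49, 5.50 and 5.49 RPKM in the 25 mM libraries. The glucose groups did not overlap, and the log2 fold change was 1.71 (SE 0.22, adjusted p = 0.000875). Its H3K27Ac was 5.04 and 8.26 RPKM against 22.3 and 17.2 RPKM, again without overlap (log2 fold change 1.53, SE 0.50, adjusted p = 0.00767). At 25 mM the Grik5 level ranked highest of the receptor loci in both marks, at percentile 94.3 of all loci in H3K18La and 93.3 in H3K27Ac. Grm4 came close in H3K18La, at percentile 93.8, but stood at 55.8 in H3K27Ac.

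Most of the Grik5 signal came from within the gene. Its peak at 7:25030274-25033183, in an intron 39163 bases from the transcript start, carried 3.26, 1.72 and 2.53 RPKM of H3K18La at 5 mM and 14.2, 9.47 and 8.57 RPKM at 25 mM (log2 fold change 1.90, SE 0.32, adjusted p = 0.00156). H3K27Ac at this peak went from 7.31 and 13.1 RPKM to 38.2 and 29.3 RPKM (log2 fold change 1.72, SE 0.53, adjusted p = 0.00883). This is the window printed with 1 TAATCC. Of the 7 Grik5 peaks, 5 were called higher in each mark, where 33.3% of all tested peaks were in H3K18La and 33.5% in H3K27Ac.

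Grik3, for the low-affinity subunit GluK3, had 1.21, 1.42 and 1.24 RPKM of H3K18La at 5 mM and 3.64, 3.24 and 3.49 RPKM at 25 mM, with a log2 fold change of 1.15 (SE 0.16, adjusted p = 0.00109). Its strongest peak, over an exon at 4:125657937-125659710, rose from 4.54, 5.11 and 4.57 RPKM to 20.6, 21.6 and 18.4 RPKM (log2 fold change 1.98, SE 0.22, adjusted p = 0.000524). H3K27Ac there was 6.00 and 7.81 RPKM against 18.9 and 15.5 RPKM (log2 fold change 1.26, SE 0.49, adjusted p = 0.0338), while the whole locus missed the threshold in H3K27Ac (0.67, SE 0.32, adjusted p = 0.0561). Thus the same gene was called in H3K27Ac at its strongest peak but not as a locus.

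Grik4, which encodes GluK4, a partner of the low-affinity subunits, went from 0.911, 0.973 and 1.12 RPKM of H3K18La to 2.10, 1.97 and 2.21 RPKM (log2 fold change 0.79, SE 0.20, adjusted p = 0.0146). Its mean over the 5 mM libraries was under the minimum, and without a minimum the adjusted p was 0.0117 (limma). H3K27Ac was low at this locus, at 0.639 and 0.825 RPKM against 1.22 and 1.05 RPKM, and its difference did not pass (0.41, SE 0.33, adjusted p = 0.261). Its strongest peak, in the first intron at 9:42731622-42732419, had more H3K18La than H3K27Ac at 25 mM, 11.5, 18.5 and 27.5 RPKM against 4.53 and 7.26 RPKM, although antibodies differ between the marks and the levels were not tested against each other. The H3K18La rise of that peak was 1.08 (SE 0.33, adjusted p = 0.0261).

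The other kainate genes lay under the minimum, and neither was called when it was dropped. Grik1, for the GluK1 subunit used by OFF bipolar cells, had 14 peaks and 0.511, 0.694 and 0.706 RPKM of H3K18La at 5 mM against 0.305, 0.707 and 0.525 RPKM at 25 mM. These groups overlapped, whereas its H3K27Ac, 0.665 and 0.560 RPKM against 0.850 and 0.888 RPKM, did not. Grik2 had 2 peaks and 3 reads of H3K18La over the libraries at each glucose level.

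Among the AMPA receptor genes, which encode the subunits of fast excitation, Gria2 had the highest level. This gene, whose edited product makes the channel impermeable to calcium, carried 0.576, 1.10 and 1.15 RPKM of H3K18La at 5 mM and 2.12, 2.47 and 2.22 RPKM at 25 mM (log2 fold change 0.97, SE 0.24, adjusted p = 0.0148). Its H3K27Ac was 1.64 and 2.49 RPKM against 4.32 and 3.06 RPKM, which did not overlap but missed the threshold (0.71, SE 0.34, adjusted p = 0.0574). Gria1 did not pass in H3K18La (0.58, SE 0.29, adjusted p = 0.133) or in H3K27Ac (0.69, SE 0.32, adjusted p = 0.0504).

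Gria4 had the lowest fold change of the tested loci in both marks. With 3 peaks, it carried 0.859, 0.524 and 1.00 RPKM of H3K18La at 5 mM and 0.461, 0.223 and 0.611 RPKM at 25 mM, from 13 and 8 reads in all. The groups overlapped and the difference of -0.48 did not pass (SE 0.36, adjusted p = 0.278). H3K27Ac was 1.68 and 1.24 RPKM against 2.33 and 1.34 RPKM (0.23, SE 0.32, adjusted p = 0.514).

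NMDA receptor genes were low, and 4 of the 6 lay under the minimum. Grin1, the obligatory subunit, had 0, 0.449 and 0.343 RPKM of H3K18La at 5 mM and 0.711, 0.458 and 1.10 RPKM at 25 mM, from 6 and 14 reads. Its H3K27Ac was 0.754 and 1.05 RPKM against 2.46 and 2.20 RPKM, so that neither mark overlapped between groups. The mean over the 10 libraries was 0.952 RPKM, under the minimum, and without a minimum Grin1 was not called by limma in H3K18La (0.74, SE 0.36, adjusted p = 0.173) or H3K27Ac (1.02, SE 0.27, adjusted p = 0.0671).

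Grin2d had the highest mean of the family. Its H3K18La rose from 0.194, 0.554 and 0.302 RPKM to 1.88, 0.908 and 1.52 RPKM (log2 fold change 1.18, SE 0.35, adjusted p = 0.027) on 9 and 29 reads. Grin2d reached the minimum only through its 25 mM libraries, and its adjusted p without a minimum was 0.0406 (limma). H3K27Ac at Grin2d, 1.14 and 1.12 RPKM against 1.94 and 1.22 RPKM, did not pass (0.33, SE 0.32, adjusted p = 0.354). Grin2c had 0.833, 0.565 and 0.862 RPKM of H3K18La against 1.19, 1.44 and 1.38 RPKM (0.56, SE 0.26, adjusted p = 0.107), and its H3K27Ac of 0.271 and 1.32 RPKM against 1.47 and 0.867 RPKM overlapped (0.47, SE 0.34, adjusted p = 0.200).

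Groups that separated downward were few. H3K18La at Grin3a was 0.807, 0.422 and 0.896 RPKM at 5 mM and 0.371, 0.239 and 0.410 RPKM at 25 mM, on 21 and 12 reads. H3K27Ac at Grin2a was 0.494 and 0.458 RPKM against 0.416 and 0.345 RPKM. Over the 42 receptor loci, groups separated upward at 25 in H3K18La and downward at 2 (Grin3a and Glra3), where 46.6% and 0.906% of all 25400 loci did so. In H3K27Ac they separated upward at 30 and downward at 2 (Grin2a and Gabra4), where 65.6% and 5.75% of all loci did.

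Grid1, whose protein binds cerebellins at synapses, carried 0.895, 1.03 and 0.990 RPKM of H3K18La at 5 mM and 2.56, 2.32 and 2.20 RPKM at 25 mM (log2 fold change 0.96, SE 0.19, adjusted p = 0.00555). Its H3K27Ac went from 1.36 and 1.57 RPKM to 3.14 and 2.62 RPKM (0.78, SE 0.32, adjusted p = 0.0301). Of its 52 tested peaks, 12 were called higher in H3K18La and 18 in H3K27Ac, where 33.3% and 33.5% of all tested peaks were. The strongest, in an intron at 14:34908476-34909895, held 5.01, 4.21 and 1.56 RPKM of H3K18La at 5 mM and 18.6, 15.4 and 16.9 RPKM at 25 mM (2.21, SE 0.35, adjusted p = 0.00124), while its H3K27Ac of 8.63 and 13.7 RPKM against 23.0 and 26.7 RPKM missed the threshold (1.15, SE 0.52, adjusted p = 0.0684).

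Group III metabotropic receptors dampen transmitter release from presynaptic terminals. Grm4, a member of that group, had 2.23, 2.55 and 2.06 RPKM of H3K18La at 5 mM and 5.94, 6.00 and 6.89 RPKM at 25 mM (log2 fold change 1.29, SE 0.14, adjusted p = 0.000405). H3K27Ac at the locus, 1.94 and 2.26 RPKM against 3.28 and 3.52 RPKM, separated but did not pass (0.59, SE 0.34, adjusted p = 0.113). The Grm4 peak with the highest mean of all receptor peaks lies in an intron at 17:27432161-27434150. H3K18La there was 9.05, 9.02 and 7.03 RPKM at 5 mM and 35.8, 34.7 and 38.3 RPKM at 25 mM (2.06, SE 0.20, adjusted p = 0.000524), and H3K27Ac was 5.81 and 9.47 RPKM against 17.0 and 17.9 RPKM (1.18, SE 0.49, adjusted p = 0.0484).

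Grm8 encodes the group III receptor known at photoreceptor terminals. Its H3K18La rose from 1.21, 1.31 and 0.921 RPKM to 3.71, 3.78 and 3.48 RPKM (1.34, SE 0.17, adjusted p = 0.00081), and its H3K27Ac from 1.60 and 2.99 RPKM to 6.23 and 5.56 RPKM (1.24, SE 0.37, adjusted p = 0.0046). Signal stood over an intron 323843 bases from the start, at 6:27809445-27810702, where H3K18La went from 3.39, 2.15 and 1.17 RPKM to 19.8, 13.9 and 13.1 RPKM (2.62, SE 0.35, adjusted p = 0.000619). H3K27Ac at this peak went from 7.35 and 15.0 RPKM to 42.4 and 33.5 RPKM (1.79, SE 0.54, adjusted p = 0.0075). Grm2 and Grm7 passed in neither mark, with fold changes of 0.56 (SE 0.36, adjusted p = 0.222) and 0.53 (SE 0.26, adjusted p = 0.127) in H3K18La.

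The group I receptor gene Grm5 and the group II gene Grm3 lay under the minimum and were not called without it.

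**Figure D3:**
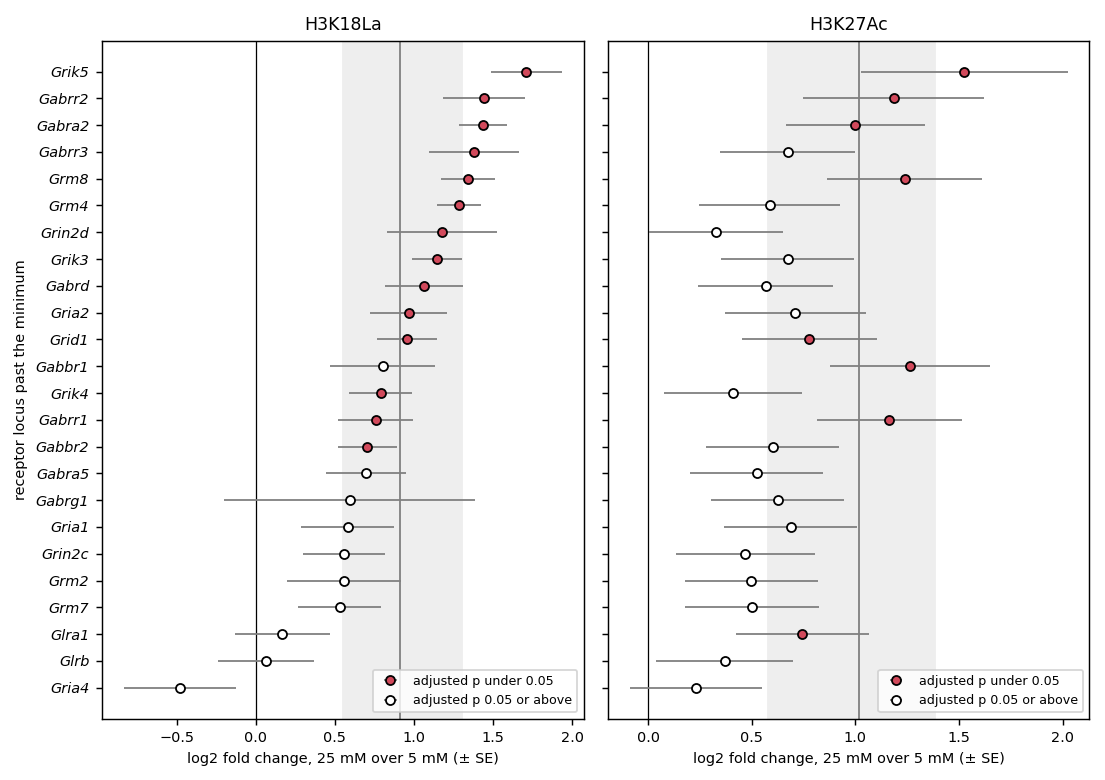
Log2 fold change of locus RPKM, 25 mM over 5 mM glucose on the deposited scale (x axis, with SE), for 24 of the 27 tested receptor loci (y axis) in H3K18La (left) and H3K27Ac (right); filled points have an adjusted p under 0.05, the grey line is the median over all 17359 loci (0.91 and 1.02) and the band its quartiles. Grik5 leads in both marks, and after scaling to reads in peaks 19 and 20 of the 27 tested loci change sign.

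The 3 rho subunit loci rose in H3K18La and 2 of them in H3K27Ac, where 49.1% and 62.8% of all loci did. Gabrr2 was the highest, with 1.94, 1.53 and 0.861 RPKM of H3K18La at 5 mM and 5.83, 4.52 and 3.79 RPKM at 25 mM (log2 fold change 1.44, SE 0.26, adjusted p = 0.00345). Its H3K27Ac went from 2.84 and 4.63 RPKM to 10.3 and 7.72 RPKM (1.18, SE 0.44, adjusted p = 0.0161). Gabrr1 rose from 0.959, 0.810 and 1.37 RPKM to 2.53, 1.84 and 1.94 RPKM in H3K18La (0.76, SE 0.24, adjusted p = 0.0328) and from 1.69 and 2.00 RPKM to 5.80 and 3.88 RPKM in H3K27Ac (1.16, SE 0.35, adjusted p = 0.00454).

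Gabrr3 lies on another chromosome, 16, than the neighbours Gabrr1 and Gabrr2 on chromosome 4. Its H3K18La was 0.642, 0.992 and 1.89 RPKM at 5 mM and 3.24, 3.73 and 4.06 RPKM at 25 mM (1.38, SE 0.28, adjusted p = 0.00627). H3K27Ac was 1.44 and 1.85 RPKM against 3.01 and 2.81 RPKM and missed the threshold (0.67, SE 0.33, adjusted p = 0.0597). Groups separated upward in all 6 comparisons of the rho loci, as they did at 46.6% of all loci in H3K18La and 65.6% in H3K27Ac.

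Of the GABA-A alpha subunit genes, Gabra2 stood highest. Of its 14 peaks, 12 were distal intergenic. H3K18La at the locus was 1.58, 1.30 and 1.75 RPKM at 5 mM and 5.03, 4.70 and 5.32 RPKM at 25 mM (log2 fold change 1.44, SE 0.15, adjusted p = 0.000386), and H3K27Ac was 1.41 and 1.90 RPKM against 3.99 and 3.57 RPKM (1.00, SE 0.33, adjusted p = 0.00906). The 8 strongest peaks lay between 61157 and 85990 bases upstream of the start, which assigns them to Gabra2 by nearness only. Its promoter peak missed the threshold in H3K18La, with 1.13, 0.689 and 1.75 RPKM against 3.03, 3.51 and 2.61 RPKM (1.11, SE 0.42, adjusted p = 0.0625), and in H3K27Ac, with 2.62 and 2.68 RPKM against 3.81 and 2.57 RPKM (0.21, SE 0.44, adjusted p = 0.727). Among promoter peaks alone the same H3K18La values passed (limma, adjusted p = 0.0402). With distal intergenic peaks left out, the locus was still called in H3K18La (1.10, SE 0.26, adjusted p = 0.0125) and was not in H3K27Ac (0.14, SE 0.35, adjusted p = 0.715).

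Gabra5 passed in neither mark (0.70, SE 0.25, adjusted p = 0.0535 in H3K18La). Gabra4, with its single peak under the minimum, had 0.905 and 0.788 RPKM of H3K27Ac against 0.544 and 0.395 RPKM.

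Of the beta subunit genes, Gabrb1 and Gabrb2 lay under the minimum. Gabrg1, with 1 peak, had 0, 0.729 and 1.39 RPKM of H3K18La against 1.92, 2.79 and 0 RPKM on 3 and 8 reads (0.59, SE 0.79, adjusted p = 0.537), and 1.31 and 1.52 RPKM of H3K27Ac against 2.37 and 2.55 RPKM (0.63, SE 0.32, adjusted p = 0.0744). Gabrd, for the delta subunit of extrasynaptic receptors, went from 1.33, 0.770 and 1.18 RPKM of H3K18La to 3.76, 2.36 and 2.42 RPKM (1.06, SE 0.25, adjusted p = 0.0105), and its H3K27Ac of 1.52 and 1.86 RPKM against 3.39 and 2.20 RPKM missed the threshold (0.57, SE 0.33, adjusted p = 0.110).

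GABA-B receptors need both of their subunits. Gabbr1 had 1.33, 0.812 and 0.775 RPKM of H3K18La against 3.39, 1.81 and 1.30 RPKM, which overlapped (0.80, SE 0.33, adjusted p = 0.0803), while its H3K27Ac rose from 1.62 and 3.45 RPKM to 8.34 and 4.96 RPKM (1.26, SE 0.38, adjusted p = 0.00493). Gabbr2 rose in H3K18La (0.70, SE 0.19, adjusted p = 0.0187) and missed the threshold in H3K27Ac (0.60, SE 0.32, adjusted p = 0.0849). These calls changed with the setting. The H3K27Ac call of Gabbr1 was lost in limma with no minimum (adjusted p = 0.0823), with the replicate block (0.104), and without the first 25 mM (0.292), the second 25 mM (0.0509) or the first 5 mM library (0.0893). In H3K18La, Gabbr1 passed with voom (adjusted p = 0.0397) and without the third 25 mM library (limma, adjusted p = 0.046), and Gabbr2 did not pass without the second 5 mM (adjusted p = 0.0565) or the second 25 mM library (adjusted p = 0.0649). Gabbr1 had 2 peaks, both at promoters, and 46 of the 49 Gabbr2 peaks were intronic.

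Of the glycine receptor genes past the minimum, none was called in H3K18La by limma, and Glra3, under it, was called lower only in the fit with no minimum. Glrb, the anchoring subunit, had 2.33, 1.19 and 2.27 RPKM of H3K18La at 5 mM and 1.88, 1.36 and 2.90 RPKM at 25 mM (0.06, SE 0.30, adjusted p = 0.867), and 1.85 and 2.18 RPKM of H3K27Ac against 4.19 and 1.74 RPKM (0.37, SE 0.33, adjusted p = 0.307). Both overlapped between groups. Glra1, for the subunit of fast glycine receptors, had 0.791, 0.624 and 0.614 RPKM of H3K18La against 0.743, 1.08 and 0.668 RPKM (0.17, SE 0.30, adjusted p = 0.645), and its H3K27Ac was 0.940 and 1.02 RPKM against 2.13 and 1.84 RPKM (0.74, SE 0.32, adjusted p = 0.0356). Glra1 reached the minimum only through its 25 mM libraries, and the H3K27Ac call was lost without a minimum (adjusted p = 0.0804, limma).

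At the level of single peaks, 299 of the 559 receptor peaks reached the minimum. H3K18La rose at 66 of them (22.1%) and H3K27Ac at 61 (20.4%), where 33.3% and 33.5% of the 72467 peaks tested did. Of the 299 peaks, 90 had a mean under 1 RPKM over the 5 mM libraries and passed through the 25 mM libraries. No receptor peak was called by limma in either mark after scaling to reads in peaks (34 and 48 had an unadjusted p under 0.05), and none in H3K27Ac with no minimum (86 had), whereas voom on the deposited scale, with the minimum, called 90 and 55 higher. One receptor peak fell, in H3K18La, where 0.098% of all tested peaks fell, and none fell in H3K27Ac, where 0.174% did (limma, 94 receptor peaks with an unadjusted p under 0.05 in either direction, and 1 called lower by voom). Without single 25 mM libraries limma called between 33 and 38 H3K18La peaks and 0 or 1 H3K27Ac peaks in either direction (23 H3K27Ac peaks had an unadjusted p under 0.05 where none was called), and 102 H3K27Ac peaks were called without the second 5 mM library.

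**Figure D4:**
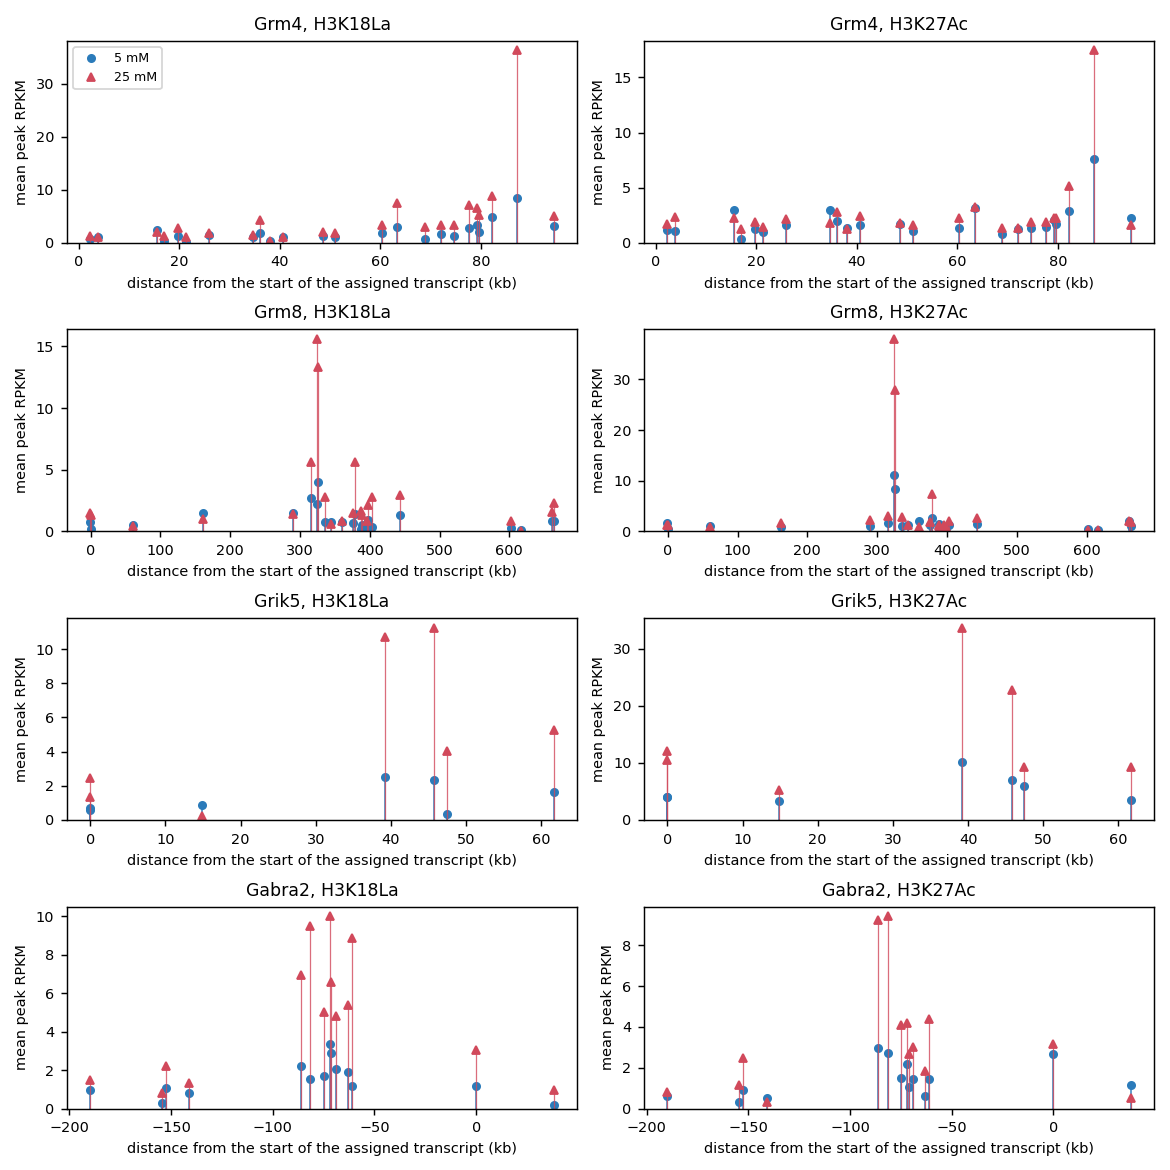
Mean RPKM of each peak (y axis) against its distance from the start of its assigned transcript (kb, x axis) at Grm4, Grm8, Grik5 and Gabra2 (rows) for H3K18La (left) and H3K27Ac (right) at 5 mM (blue circles) and 25 mM glucose (red triangles). At Grm4, Grm8 and Grik5 the highest peaks lie inside the gene, and at Gabra2 between 61157 and 85990 bases upstream.

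Promoter peaks of the receptor genes had lower means than all promoter peaks in both marks, a difference that was not tested. As a width-weighted mean, these peaks carried 0.779 ± 0.102 RPKM of H3K18La at 5 mM and 1.40 ± 0.204 RPKM at 25 mM (SD, n = 3), where all promoter peaks had means of 1.14 and 3.20 RPKM. For H3K27Ac the values were 1.65 ± 0.231 and 3.59 ± 1.19 RPKM (SD, n = 2), where all promoter peaks had means of 4.15 and 11.8 RPKM. Of 31 tested receptor promoter peaks, 2 were called higher in H3K18La (6.45%, where 26.8% of all tested promoter peaks were) and 9 in H3K27Ac (29.0%, where 58.0% were).

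The larger Grik5 promoter peak, which reaches over Zfp574, went from 1.08, 0.440 and 0.560 RPKM to 3.09, 2.06 and 2.31 RPKM of H3K18La (1.34, SE 0.47, adjusted p = 0.0457) and from 3.16 and 5.02 RPKM to 13.5 and 7.47 RPKM of H3K27Ac (1.23, SE 0.46, adjusted p = 0.0271).

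The other Grik5 promoter peak had 4 and 6 H3K18La reads at 5 and 25 mM and did not pass (0.82, SE 0.82, adjusted p = 0.446), while its H3K27Ac rose from 3.22 and 4.86 RPKM to 13.5 and 10.6 RPKM (1.49, SE 0.46, adjusted p = 0.00939). At Gabbr1, H3K27Ac rose at both promoter peaks, from 1.85 and 3.86 RPKM to 9.76 and 4.69 RPKM at the first (1.19, SE 0.44, adjusted p = 0.0276) and from 1.26 and 2.79 RPKM to 6.08 and 5.40 RPKM at the second (1.37, SE 0.44, adjusted p = 0.0112). Their H3K18La, 1.35, 0.881 and 0.420 RPKM against 3.77, 2.39 and 0.770 RPKM and 1.30, 0.703 and 1.34 RPKM against 2.78, 0.896 and 2.15 RPKM, overlapped between groups (0.91, SE 0.57, adjusted p = 0.225, and 0.54, SE 0.50, adjusted p = 0.413).

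The receptor genes were then set beside 24 photoreceptor genes with peaks (phototransduction and outer segment genes and their factors). Each library's own reads in peaks were the denominator, which does not depend on the library scaling but still counts background reads within peaks. By width, receptor peaks made up 0.476% of all peak bases and photoreceptor peaks 0.156%. The part of background reads in the shares below was not tested. Receptor peaks took a smaller share of the reads in peaks at 25 mM in every library of both marks. For H3K18La the share was 0.388%, 0.402% and 0.391% at 5 mM and 0.335%, 0.336% and 0.342% at 25 mM, or 0.394% ± 0.00703 against 0.337% ± 0.00405 (SD, n = 3). Wilson 95% intervals, which cover counting error only, reached down to 0.362% at 5 mM and up to 0.354% at 25 mM, so that none overlapped between the groups.

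H3K27Ac shares were 0.271% and 0.226% at 5 mM and 0.200% and 0.202% at 25 mM. Photoreceptor peaks took 0.223%, 0.188% and 0.214% of H3K18La reads at 5 mM and 0.448%, 0.329% and 0.286% at 25 mM. Their H3K27Ac shares were 0.348% and 0.405% against 0.684% and 0.569%. Receptor and photoreceptor shares therefore moved in opposite directions, and neither overlapped between glucose levels.

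Receptor reads per photoreceptor read were 1.74, 2.13 and 1.83 in H3K18La at 5 mM and 0.747, 1.02 and 1.20 at 25 mM, a mean of 1.90 ± 0.206 against 0.988 ± 0.226 (SD, n = 3). In H3K27Ac the ratio was 0.780 and 0.558 against 0.293 and 0.355. No test was made on these sums over members. On the deposited scale both sets had more reads at 25 mM. With read totals set to 1000000, receptor peaks went from 469 to 1099 H3K18La reads and photoreceptor peaks from 248 to 1166. All 24 photoreceptor loci were called higher in each mark, with median log2 fold changes of 1.98 and 1.88.

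**Figure D5:**
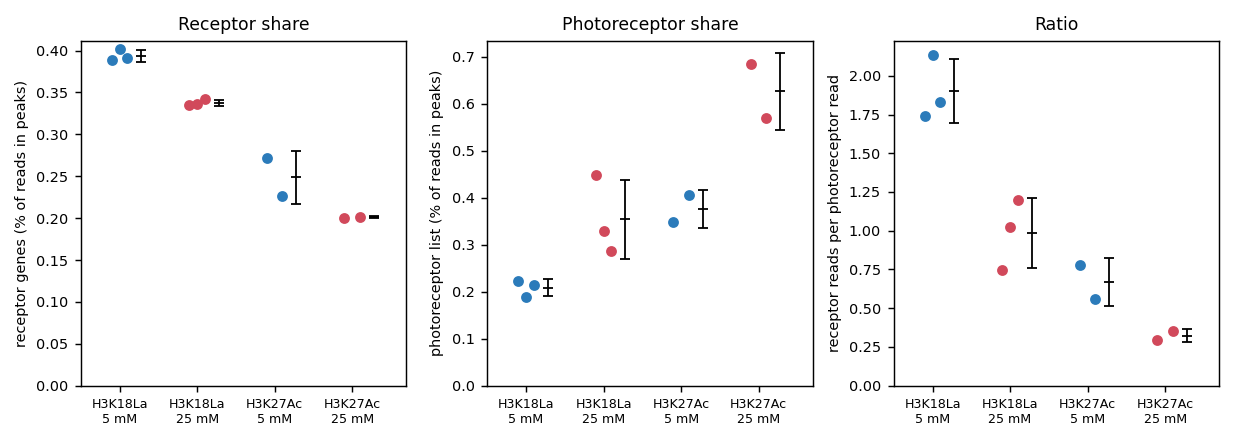
Share of reads in peaks (%, y axis) in receptor peaks (left) and photoreceptor peaks (middle), and receptor reads per photoreceptor read (right), with 1 point per library for each mark and glucose level (x axis) and the mean ± SD beside the points. The receptor share and the ratio are lower and the photoreceptor share higher at 25 mM, without overlap.

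Genes that work with these receptors were counted from lists of the same kind, to be read against the 49.1% and 62.8% of all loci that rose and the medians of 0.91 and 1.02 over all loci. Of 21 tested loci for synaptic scaffolds, 14 rose in H3K18La and 13 in H3K27Ac (medians 0.91 and 0.93). Auxiliary receptor subunits gave 5 and 3 of 10 (medians 0.71 and 0.61), and transmitter supply and uptake 11 and 11 of 16 (medians 0.98 and 1.04). None fell in the limma fits. Chosen after their values were seen, the glutamate transporter gene Slc1a7 rose in H3K18La (1.88, SE 0.17, adjusted p = 0.000249) and H3K27Ac (1.56, SE 0.50, adjusted p = 0.00709), the GABA-B auxiliary gene Kctd8 rose in both (1.55, SE 0.25, adjusted p = 0.00211, and 1.35, SE 0.36, adjusted p = 0.00169), and the vesicular GABA transporter gene Slc32a1 passed in neither (-0.02, SE 0.32, adjusted p = 0.969, and 0.37, SE 0.33, adjusted p = 0.306).

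Markers of the cells that hold the receptors gave mixed counts, again beside 49.1% and 62.8% of all loci. Loci called higher in H3K18La and H3K27Ac were 5 and 8 of 8 tested for bipolar cells, 1 and 1 of 4 for amacrine cells, 1 and 0 of 3 for ganglion cells, 0 and 1 of 2 for horizontal cells, 3 and 3 of 7 for Müller glia and 2 and 1 of 3 for microglia. The summed H3K18La level of the 11 bipolar loci was 10.9 to 13.8 RPKM at 5 mM and 28.7 to 35.7 RPKM at 25 mM, that of the 9 amacrine loci 6.24 to 8.11 against 13.0 to 14.8 RPKM, and that of the 24 photoreceptor loci 39.4 to 47.4 against 159 to 286 RPKM. Most of the amacrine difference lay at 1 locus, named after its values were seen, the glycine transporter gene Slc6a9, whose mean was 2.01 RPKM at 5 mM and 6.70 RPKM at 25 mM. Only the horizontal cell marker Lhx1 was at 0 in every library of a group, in H3K27Ac at 5 mM. The part of cell composition in the receptor values was not tested.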

How the data were processed

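CUT&Tag libraries of H3K18La and H3K27Ac from retinal explants were analysed from 1 table. The authors called peaks with MACS, merged them, annotated them with ChIPseeker 1.34.1 and deposited RPKM per peak and library (edgeR 3.40.2 is also named in the submitters' processing notes). The deposited fold changes and p-values of the authors were not used. RPKM steps returned whole reads for 100% of values (tolerance 0.05), which gave the read totals. The study's methods name the csaw package for normalisation over genomic windows. Whether the read totals include such a factor is not given in the sources used here.

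Each mark was fitted alone with limma 3.58.1 (R 4.3.3) as log2(RPKM + 0.5), so fold changes of low loci are understated, with a minimum mean of 1 RPKM over the 10 libraries and Benjamini-Hochberg adjustment over all loci or peaks. The fit was tested on simulated data in which equal numbers of features rose and fell. An earlier fit with no minimum found none of the simulated H3K27Ac changes, so the minimum was put in the main fit. Because most loci here changed in a single direction, the simulation cannot speak for the scaling. Member genes, lists and tests were chosen with earlier results of these data known. Library values are given for the highest locus of each family, the 5 largest and 5 smallest fold changes per mark, 9 receptors of retinal interneurons and the 5 highest promoter peaks per mark, except that some genes are not reported here, and any other named locus was chosen after its values were seen. All genes stayed in the fits and counts. Alternatives covered pseudocount, minimum, scaling, peak classes, voom, a replicate block and each library left out.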

Additional observations from a re-analysis of the deposited data

Results flagged for a closer look

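Glra3, which encodes a glycine receptor alpha subunit, differed in direction between the marks. Its H3K18La locus level was 0.773, 1.26 and 0.601 RPKM at 5 mM and 0, 0 and 0.275 RPKM at 25 mM glucose, a mean difference of -0.786 RPKM on 11 reads against 1. Its H3K27Ac was 1.51 and 0.788 RPKM at 5 mM and 1.70 and 1.87 RPKM at 25 mM, a mean difference of 0.636 RPKM on 14 reads against 32. Every H3K18La library at 25 mM lay below, and every H3K27Ac library above, those at 5 mM. The locus was below the minimum level. Fitted with no minimum, limma called it lower in H3K18La (log2 fold change -1.22, SE 0.31, adjusted p = 0.0293) and did not call it in H3K27Ac (0.50, SE 0.32, adjusted p = 0.264). The difference between the marks was not tested.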

How the results depend on the processing

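On the deposited scale, pseudocounts of 0.1 and 1, robust moderation and voom on the recovered reads left each count of called receptor loci within 1.5 times the 14 of H3K18La and the 11 of H3K27Ac. H3K18La loci numbered 1 when libraries were centred on their median, 0 when scaled to reads in peaks, 2 with promoter peaks only and 8 at an adjusted p of 0.01, 15 with no minimum (14 higher and Glra3 lower), and 11 to 13 leaving out 1 library. H3K27Ac loci numbered 0 centred, 0 scaled, 0 with no minimum (14 at an unadjusted limma p under 0.05), 7 with a minimum of 2 RPKM, 7 at 0.01, and 0 to 17 leaving out 1 library. The 67 H3K18La peaks called became 5 centred, 0 scaled, 44 with no minimum, 44 with a pseudocount of 0.1 and 20 at 0.01, and 33 to 69 leaving out 1 library. The 61 H3K27Ac peaks became 0 centred, 0 scaled, 0 with no minimum (86 at an unadjusted limma p under 0.05), 22 at 0.01, and 0 to 102 leaving out 1 library. Of receptor loci and peaks, 2 and 34 in H3K18La and 1 and 48 in H3K27Ac had an unadjusted limma p under 0.05 after scaling, and 4 and 41 in H3K27Ac after centring. The cause of these changes was not tested. An H3K27Ac group left with 1 library was assumed to vary like the other.

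Neither the sample titles nor the study's methods say whether same-numbered libraries were paired. The correlations of their deviations from the group means were 0.042, 0.0046 and 0.027 in the H3K18La libraries and -0.032 in those of H3K27Ac. With so few libraries and low reads per locus, these values cannot settle whether they were paired. Fitted with the replicate number as a block, 13 receptor loci and 59 peaks were called in H3K18La (Gabbr1 among them, adjusted p = 0.0466), and 2 loci and 32 peaks in H3K27Ac. The edgeR test on recovered reads was not run, and voom on those reads was the count-based alternative.

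The ratio of the receptor share of reads in peaks at 25 mM to that at 5 mM was 0.857 in H3K18La and moved to 0.6455 with promoter peaks only and to 0.8858 with peaks of at least 1 RPKM, and to 0.851 to 0.8658 leaving out 1 library. In H3K27Ac it was 0.809, with 0.742 to 0.889 leaving out 1 library. The like ratio of receptor to photoreceptor reads was 0.5195 in H3K18La, 0.3534 with promoter peaks only, and 0.465 to 0.583 leaving out 1 library, and in H3K27Ac 0.484, with 0.415 to 0.580.

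After scaling to reads in peaks, the log2 fold changes with another sign among the genes reported here were, in H3K18La, Gabbr1 -0.26, Gabbr2 -0.40, Gabra5 -0.34, Gabrd -0.053, Gabrg1 -0.15, Gabrr1 -0.32, Glra1 -0.69, Glrb -1.07, Gria1 -0.34, Gria2 -0.10, Grid1 -0.13, Grik3 -0.020, Grik4 -0.28, Grin2c -0.40, Grm2 -0.36, Grm7 -0.43, the Gabbr1 peak at 17:37045389-37047140 -0.10, the Gabbr1 peak at 17:37049710-37050807 -0.52, the Gabra2 peak at 5:71095091-71096770 -0.017 and the Grik4 peak at 9:42731622-42732419 -0.30. In H3K27Ac they were Slc32a1 -0.69, Gabbr2 -0.38, Gabra2 -0.059, Gabra5 -0.40, Gabrd -0.47, Gabrg1 -0.38, Gabrr3 -0.36, Glra1 -0.20, Glrb -0.69, Gria1 -0.26, Gria2 -0.36, Gria4 -0.76, Grid1 -0.25, Grik3 -0.33, Grik4 -0.41, Grin2c -0.28, Grin2d -0.61, Grm2 -0.51, Grm4 -0.49, Grm7 -0.40, the Grid1 peak at 14:34908476-34909895 -0.087, the Grm4 peak at 17:27432161-27434150 -0.042, the Gabra2 peak at 5:71095091-71096770 -0.89 and the Grik4 peak at 9:42731622-42732419 -0.20.

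After centring, the log2 fold changes with another sign among the genes reported here were, in H3K18La, Gabbr2 -0.086, Gabra5 -0.095, Gabrg1 -0.20, Gabrr1 -0.034, Glra1 -0.62, Glrb -0.73, Gria1 -0.21, Grik4 -0.0013, Grin2c -0.23, Grm2 -0.23, Grm7 -0.26, the Gabbr1 peak at 17:37049710-37050807 -0.34 and the Grik5 peak at 7:25071702-25072132 -0.059. In H3K27Ac they were Slc32a1 -0.67, Gabbr2 -0.43, Gabra2 -0.035, Gabra5 -0.51, Gabrd -0.47, Gabrg1 -0.41, Gabrr3 -0.36, Glra1 -0.29, Glrb -0.66, Gria1 -0.35, Gria2 -0.32, Gria4 -0.80, Grid1 -0.26, Grik3 -0.36, Grik4 -0.62, Grin2c -0.57, Grin2d -0.71, Grm2 -0.54, Grm4 -0.45, Grm7 -0.53 and the Gabra2 peak at 5:71095091-71096770 -0.48.

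Signs also changed with distal intergenic peaks left out for Glra1 in H3K18La (-0.016), by voom on recovered reads for Slc32a1 in H3K18La (0.11), without the H3K18La 25 mM replicate 3 for Slc32a1 in H3K18La (0.17) and Glrb in H3K18La (-0.17), without the H3K18La 5 mM replicate 2 for Glrb in H3K18La (-0.18), without the H3K18La 5 mM replicate 3 for Slc32a1 in H3K18La (0.17), without the H3K27Ac 25 mM replicate 1 for Slc32a1 in H3K27Ac (-0.20) and Glrb in H3K27Ac (-0.16) and Gria4 in H3K27Ac (-0.079) and the Gabra2 peak at 5:71095091-71096770 in H3K27Ac (-0.039) and without the H3K27Ac 5 mM replicate 1 for Grin2c in H3K27Ac (-0.15). The 15 loci under the minimum entered only the fit without it. Leaving out 1 library, these fold changes ranged from -0.039 to 0.45 for the Gabra2 peak at 5:71095091-71096770 in H3K27Ac, from -0.18 to 0.27 for Glrb in H3K18La, from -0.16 to 0.90 for Glrb in H3K27Ac, from -0.079 to 0.54 for Gria4 in H3K27Ac, from -0.15 to 1.09 for Grin2c in H3K27Ac, from -0.20 to 0.17 for Slc32a1 in H3K18La, from -0.20 to 0.94 for Slc32a1 in H3K27Ac.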
